A study of Mus musculus with 6 samples.

Results

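A set of 10 genes of membrane traffic was followed in Melan-a cells, immortalised pigmented melanocytes of the C57BL/6 mouse strain, after transfection with an siRNA against Dicer (siDicer) or a control siRNA (siScr). Dicer cuts precursor RNAs into mature microRNAs. The 10 genes were the SNARE genes Snap23, Snap25, Vamp4, Stx6 and Stx16, the AP-4 adaptor subunit genes Ap4b1 and Ap4e1, and the tethering complex genes Vps16, Vps18 and Vps39, out of 7486 genes with a probe set of their own and 16383 probe sets in all. Each was found by a single gene symbol in the platform annotation, and each had 1 probe set. The set was selected on the siDicer minus siScr log2 differences of these same arrays, together with what the genes do, so those differences are given here as a description. Calls of members in the fit over all probe sets are counted for completeness and are no independent test. Both groups grew in serum-containing F12 medium with the phorbol ester TPA, received siRNA with lipofection and magnetic particles, and were lysed 24 hours later. Each group held 3 mouse Clariom D arrays, called biological replicates by the submitters, from cells at passages 47, 54 and 56, so that every siDicer array had an siScr array of the same passage. The model is a single cell line, and the transcript of the targeted gene was not analysed here, so the groups rest on their labels. Whole lysates were measured, so a shift in the make-up of a culture and a change per cell cannot be told apart.

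Traffic between compartments needs a coat to pick cargo, a tether to catch the vesicle and SNARE proteins to fuse the membranes. SNARE proteins sit on both membranes and wind into a bundle of helices that pulls the membranes together. AP-4 is an adaptor complex that collects cargo at the trans-Golgi network, and HOPS is a tether on late endosomes and lysosomes. Melanocytes are known for building melanosomes, pigment organelles that receive their enzymes from endosomes through the same kinds of machinery.

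Values are log2 signals, 1 log2 unit being a doubling. A level of 4.22 served as a gauge of background; it is the 95th percentile over 426 olfactory and vomeronasal receptor genes, and 57.8% of probe sets lay above it. Array medians ran from 4.58 to 4.64, arrays correlated with r from 0.994 to 0.997 over all probe sets, and RNA integrity numbers were 9.7 to 10. The melanocyte genes Tyrp1, Pax3 and Mlph, the 3 of 13 listed melanocyte markers that were measured, had mean levels of 12.9, 10.6 and 10.2 in siDicer cells and 12.8, 10.6 and 10.3 in siScr cells. None of the 3 was called different. Of 10 neuron, 5 fibroblast, 4 keratinocyte and 8 immune cell markers measured, 0 were called in limma without or with the replicate block, and at an unadjusted p under 0.05 without the block 2 immune markers, C1qa and Fcer1g, were lower and 0 markers of the other lists passed. With the block 3 immune markers, C1qa, C1qb and Fcer1g, were lower and 2 fibroblast markers, Postn and Col5a1, were higher at an unadjusted p under 0.05, by 0.25 and 0.19 log2 units for the fibroblast pair. Over all 16383 probe sets, limma gave an unadjusted p under 0.05 without the block to 985 higher and 682 lower. With the block there were 1445 higher and 1123 lower. The part of such cells in the results was not tested.

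Snap23 had the highest difference of the 10 genes. SNAP-23 is the widely expressed plasma membrane SNARE that contributes 2 helices to the fusion bundle in secretion and membrane recycling. Its signal was 8.35, 8.36 and 8.32 in siDicer cells at passages 47, 54 and 56, against 7.56, 7.73 and 7.62 in siScr cells. The groups were far from overlapping, and the 3 siDicer arrays lay within 0.04 log2 units of each other. The difference of means was 0.71 ± 0.07 (SE, n = 3 each), a level 1.63-fold higher in siDicer cells. Within the passage pairs the differences were 0.79, 0.63 and 0.70.

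Snap25, the paralogue that serves synaptic vesicle fusion in neurons, was at the background gauge. It read 4.24, 4.21 and 4.21 in siDicer cells and 4.22, 4.15 and 4.15 in siScr cells, with a difference of 0.05 ± 0.06 (SE, n = 3 each). It was the only member with a mean level below the gauge, and its groups overlapped.

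The next 3 SNARE genes act between endosomes and the trans-Golgi network. Syntaxin 16, syntaxin 6 and VAMP4 take part in the fusion of vesicles that return from endosomes, with Vti1a as a further partner. Stx16 read 7.43, 7.45 and 7.41 in siDicer cells and 7.43, 7.57 and 7.52 in siScr cells. The siDicer value was below its siScr partner at each passage, by as little as 0.01 at passage 47, and the difference of means was -0.08 ± 0.06 (SE, n = 3 each). Stx6 read 8.09, 7.95 and 7.99 in siDicer cells and 7.97, 8.06 and 8.06 in siScr cells. The siDicer array was the higher one at passage 47 and the lower one at the later passages, and the mean difference was -0.01 ± 0.07 (SE). Vamp4 read 6.90, 6.95 and 7.10 in siDicer cells and 7.00, 6.84 and 6.96 in siScr cells, a difference of 0.05 ± 0.08 (SE) whose sign also varied among the pairs. None of these 3 genes had separate groups.

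**Figure D1:**
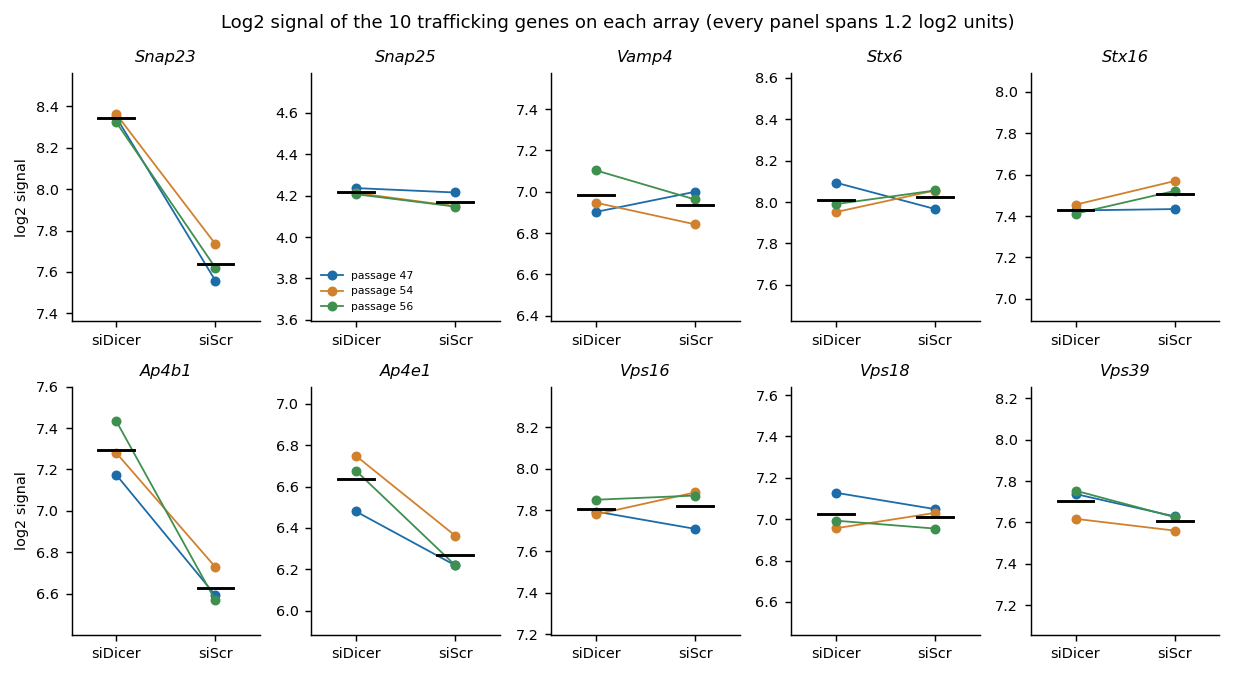
Log2 signal on the vertical axis for each of the 10 genes on the 3 siDicer and 3 siScr arrays; points are arrays coloured by passage, lines join arrays of the same passage and black bars are group means. Snap23, Ap4b1 and Ap4e1 have every siDicer array above every siScr array, while the other genes overlap.

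Both measured AP-4 subunits were higher in siDicer cells. AP-4 has a beta, an epsilon, a mu and a sigma subunit; Ap4m1 and Ap4s1, for the mu and sigma subunits, were not analysed here. Ap4b1, the beta subunit, read 7.17, 7.28 and 7.43 in siDicer cells against 6.59, 6.73 and 6.57 in siScr cells. Its groups were apart at every passage, the difference of means was 0.67 ± 0.08 (SE, n = 3 each), or 1.59-fold, and the pair differences were 0.58, 0.55 and 0.87. Ap4e1, the epsilon subunit, read 6.48, 6.75 and 6.68 in siDicer cells against 6.22, 6.36 and 6.22 in siScr cells. These groups did not overlap either, but the gap was smaller, at 0.37 ± 0.09 (SE, n = 3 each) or 1.29-fold, with pair differences of 0.26, 0.39 and 0.46.

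The 3 tethering genes were nearly level between the groups. Vps16 and Vps18 encode subunits of the core shared by HOPS and its early endosomal relative CORVET, and Vps39 encodes a HOPS subunit. Vps16 read 7.79, 7.78 and 7.85 in siDicer cells and 7.71, 7.89 and 7.87 in siScr cells, with a difference of -0.01 ± 0.07 (SE, n = 3 each). Vps18 read 7.13, 6.96 and 6.99 in siDicer cells and 7.05, 7.03 and 6.95 in siScr cells, with a difference of 0.01 ± 0.07 (SE). In both genes the pairs disagreed in direction. Vps39 read 7.74, 7.62 and 7.75 in siDicer cells and 7.63, 7.56 and 7.63 in siScr cells. It was the higher in siDicer cells at each passage, by 0.11, 0.06 and 0.13, but the groups overlapped across passages and the mean difference was 0.10 ± 0.07 (SE, n = 3 each).

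**Figure D2:**
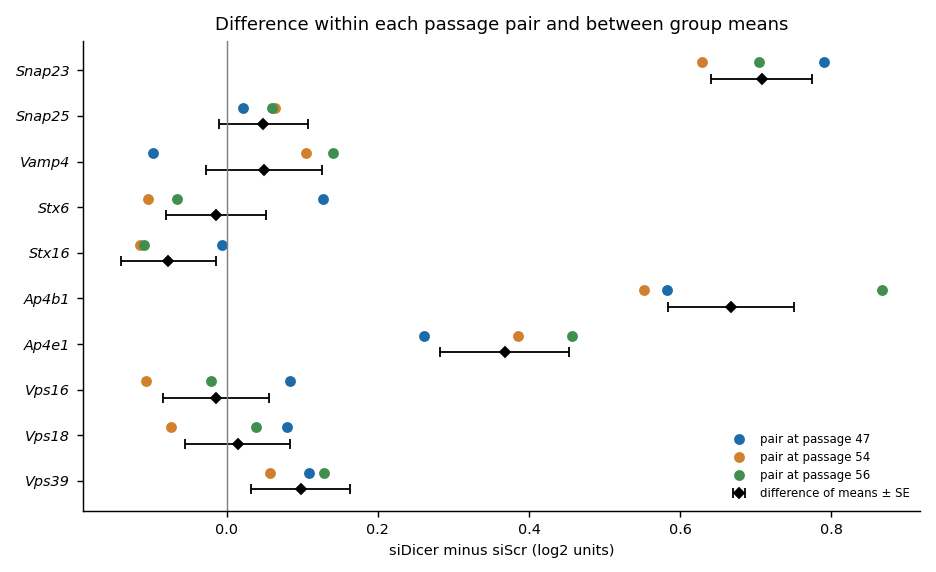
Differences of log2 signal, siDicer minus siScr, for each gene: coloured points are the 3 pairs of the same passage, and black diamonds with bars are the difference of group means ± SE from the fit over all probe sets. Snap23, Ap4b1 and Ap4e1 lie between 0.26 and 0.87 in every pair, and the pairs of the other genes between -0.11 and 0.14.

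Counted over the set, 7 of the 10 genes had a difference above 0 and 3 below 0, with a median of 0.05 where all probe sets had one of -0.01. Of all 16383 probe sets 7270 were above 0 and 9113 below. In limma over all probe sets, at a Benjamini-Hochberg adjusted p under 0.05, 2 of the 10 members were called, Snap23 and Ap4b1, both higher; 0.214% of all probe sets were called and 0.146% were called higher. With replicate number as a block the same 2 were called, where 0.995% of all probe sets were called and 0.757% called higher; Ap4e1 was not called in either fit. Groups did not overlap, siDicer higher, for 3 of 10 members against 7.57% of all probe sets and 10.5% of those above the background gauge; siDicer lower, this held for 0 members and 8.29% of probe sets. The siDicer array was the higher at all 3 passages for 5 members (17.9% of probe sets) and the lower at all 3 for 1 member, Stx16 (22.6% of probe sets). Nothing is read from these counts, since the set was assembled with this contrast known. The number of arrays also bears on them: 0 members were called without siDicer replicate 1, 2 or 3 or without siScr replicate 3, 1 without siScr replicate 1 (Snap23) and 2 without siScr replicate 2, while over these 6 fits the difference of Snap23 stayed between 0.67 and 0.76 and that of Ap4b1 between 0.60 and 0.73.

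The members were selected on their siRNA differences, so passage values are set beside those differences only as a description. With both groups averaged, the mean at passage 47 minus that at the later passages ran from -0.15 for Ap4e1 to 0.10 for Vps18. In siDicer cells alone it ran from -0.23 for Ap4e1 to 0.15 for Vps18. In siScr cells alone it ran from -0.17 for Vps16 to 0.10 for Vamp4. Both AP-4 subunits were lower at passage 47 in each group. For Ap4e1 that difference was -0.23 in siDicer cells and -0.07 in siScr cells, and for Ap4b1 it was -0.18 in siDicer cells and -0.06 in siScr cells. The passage value of Snap23 was 0.00 in siDicer cells and -0.12 in siScr cells. For the other 7 genes the siRNA differences, from -0.08 to 0.10, lay in the same range as their passage values averaged over the groups, from -0.09 to 0.10. Each passage had 1 array per group, so these values carry no test. Passage cannot be told apart from any other difference between the replicates.

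AP-4 is known for exporting the autophagy protein ATG9A and the SERINC proteins from the trans-Golgi network, with RUSC1, RUSC2 and the Hook proteins as partners. Genes for 5 of 15 listed cargo and partner proteins were measured, and 0 passed the threshold in limma without or with the block. Without the block 2 had an unadjusted p under 0.05, Atg9a and Serinc3. Of all 16383 probe sets 985 were higher and 682 lower by that measure. Atg9a read 8.12, 7.99 and 8.11 in siDicer cells against 7.78, 7.84 and 7.90 in siScr cells. Serinc3 read 11.16, 11.20 and 11.29 in siDicer cells against 11.01, 11.00 and 11.04 in siScr cells. For both cargo genes every siDicer array lay above every siScr array, with differences of 0.23 ± 0.07 and 0.20 ± 0.06 (SE, n = 3 each; limma, adjusted p = 0.297 and 0.325 without the block, 0.163 and 0.173 with it). Among the partner genes, Rusc1 had a difference of -0.10 and Hook1, below the background gauge, of 0.02, both with overlapping groups. Rusc2 differed by -0.06, and each of its siDicer arrays lay below every siScr array.

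**Figure D3:**
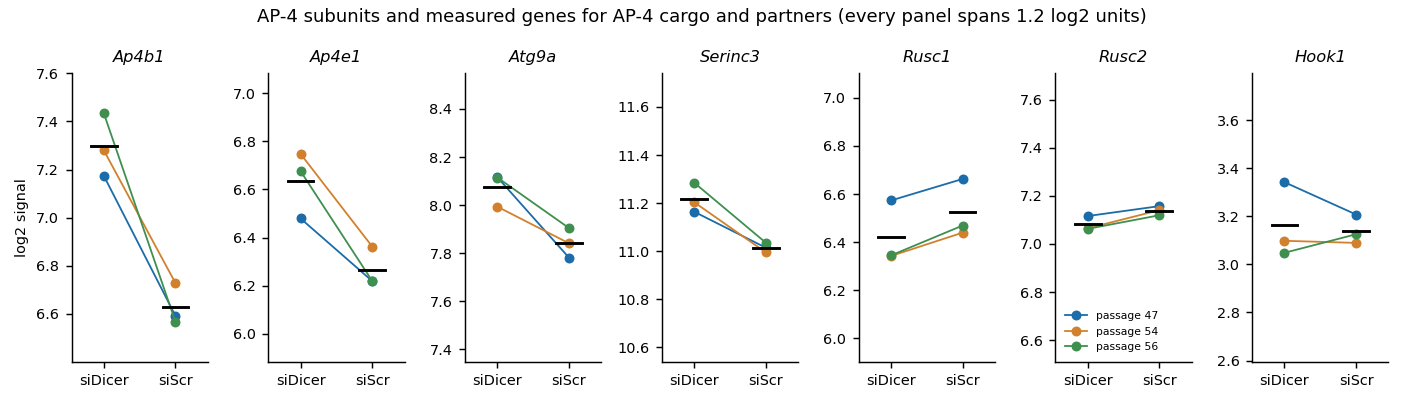
Log2 signal on the vertical axis of the AP-4 subunit genes Ap4b1 and Ap4e1 and of the 5 measured cargo and partner genes, in siDicer and siScr cells; points are arrays coloured by passage, lines join the same passage and black bars are group means. Ap4b1, Ap4e1, Atg9a and Serinc3 have separate groups with siDicer above, at differences of 0.67, 0.37, 0.23 and 0.20. Rusc1 and Rusc2 lie at -0.10 and -0.06, and Rusc2 has separate groups with siDicer below.

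Other trafficking genes gave no call. Over 9 lists of related genes 53 were measured, 50 of them above the background gauge, and 0 passed in limma without or with the block. At an unadjusted p under 0.05 there were 10 higher and 0 lower without the block and 11 higher and 1 lower with it. Of all 16383 probe sets 985 were higher and 682 lower by that measure without the block. With the block 1445 were higher and 1123 lower. Differences ran from -0.13 to 0.34 with a median of 0.00, against -0.01 over all probe sets, and 27 were above 0. Of all 16383 probe sets 7270 were above 0 and 9113 below, and the direction counts of single lists below are to be set beside these. Groups did not overlap, siDicer higher, for 13 of the 53 (24.5%), against 7.57% of all probe sets and 10.5% of those above the gauge. Groups with siDicer lower did not overlap for 4 (7.55%), near the 8.29% of all probe sets. The smallest adjusted p was 0.186 without and 0.0503 with the block.

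Among the other SNARE genes 3 of 35 listed were measured, and all had differences above 0. Sec22b, a SNARE between the endoplasmic reticulum and the Golgi, differed by 0.15 ± 0.06 (SE, n = 3 each; limma, adjusted p = 0.491). Stx17, the syntaxin of autophagosome fusion, differed by 0.12 and Stx12, an endosomal syntaxin, by 0.06, and 0 of the 3 were called. Among 12 measured SNARE regulators 10 were below 0. The exception with the largest difference was Napb, a relative of the SNARE disassembly factor alpha-SNAP, at 6.34 ± 0.08 in siDicer cells and 6.13 ± 0.05 in siScr cells (SD, n = 3 each; limma, adjusted p = 0.36). Vps45, the Sec1-like protein that works with syntaxin 16, differed by -0.07 and the synaptotagmins Syt13 and Syt11 by -0.13 and -0.12, none of them called. Groups did not overlap for 2 of the 12 regulators with siDicer higher, and for 3 with siDicer lower, Syt13 and Syt11 among them.

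Beyond the members a single gene of the HOPS and CORVET list was measured, 1 of 25. This was Tgfbrap1, the CORVET counterpart of Vps39, at 7.29 ± 0.03 in siDicer cells and 7.24 ± 0.04 in siScr cells (SD, n = 3 each), a difference of 0.05 that was not called. Of the other adaptor and clathrin genes 4 were measured, with differences of -0.09 for Ap5s1, -0.10 for Ap1ar, -0.05 for Ap1s3 and 0.06 for the clathrin light chain Clta. None of these 4 was called, and their groups overlapped. In the BLOC and melanosome sorting list 4 were measured and 0 called, with Hps3, a BLOC-2 subunit, at -0.12 and Bloc1s6, a BLOC-1 subunit, at 0.08.

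The largest differences in these lists were those of a sorting nexin and a COPII coat gene. Snx5, a sorting nexin of endosomal tubules, read 8.48, 8.71 and 8.66 in siDicer cells against 8.18, 8.35 and 8.28 in siScr cells. Sec24d, a cargo adaptor of the COPII coat, read 8.07, 8.36 and 8.07 in siDicer cells against 7.73, 8.01 and 7.73 in siScr cells. Both had separate groups and a difference of 0.34, with standard errors of 0.08 and 0.11 (limma, adjusted p = 0.186 and 0.341 without the block, 0.0539 and 0.0503 with it), so neither was called. The Golgi matrix genes Golga1 and Golga2 differed by 0.24 and 0.18 and the ESCRT disassembly ATPase gene Vps4b by 0.20, also with separate groups and without a call. In the list of retromer, sorting nexin and ESCRT genes 9 of 13 lay above 0, in that of Golgi and plasma membrane tethers 3 of 5 and in that of COPI and COPII coats 4 of 7.

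**Figure D4:**
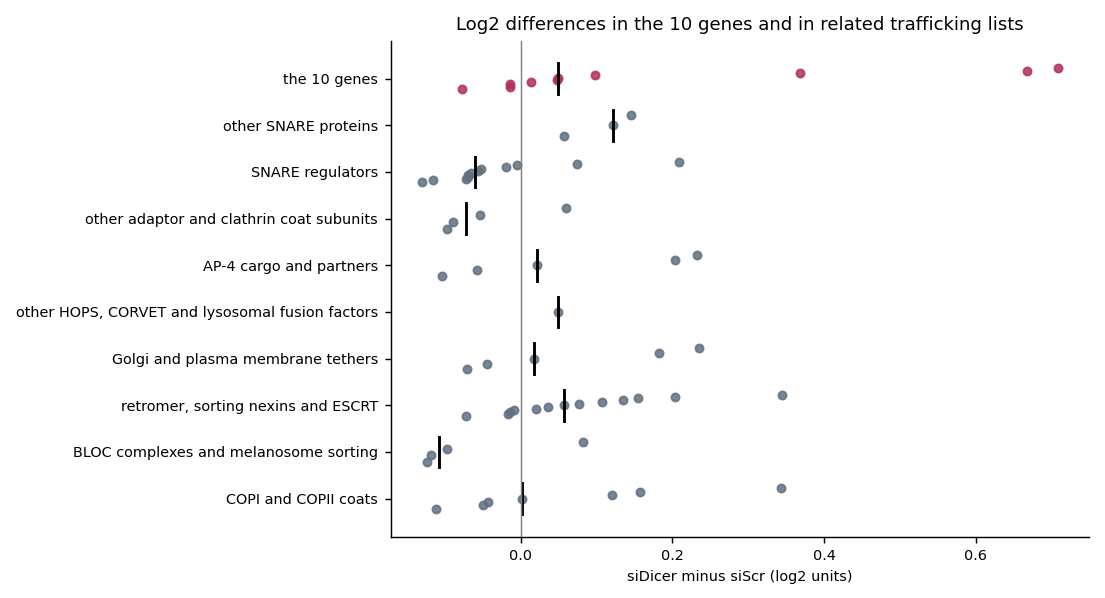
Log2 differences, siDicer minus siScr, on the horizontal axis for the 10 genes (top row) and for the measured genes of 9 related lists; each point is a gene and black bars are list medians. The highest gene of the related lists lies at 0.34, while Snap23 and Ap4b1 lie at 0.71 and 0.67.

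The profiles most like those of the leading genes were found by the root mean square difference over the 6 arrays, each gene centred on its own mean, among 3587 other named genes above the background gauge. Nearest to Snap23 were Tmco1, an endoplasmic reticulum membrane protein, at 0.0665 log2 units, Ttc17 at 0.0741 and the integrin subunit gene Itgav at 0.0755. Nearest to Ap4b1 were Itgav at 0.0718, Tiprl, a regulator of PP2A-type phosphatases, at 0.0743 and Fkbp7, a prolyl isomerase, at 0.0753. All of these genes had siDicer above siScr by 0.59 to 0.71, which this measure selects for, since most of the variation in Snap23 and Ap4b1 lay between the groups.

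The stretches just before the annotated starts of the 3 genes with separate groups, and of Stx6 for contrast, are shown because neighbouring genes and upstream letters can be set beside the expression values. They are from RefSeq, assembly GRCm38.p6, all on the plus strand, and end before the first annotated base of the gene. That of Ap4b1 is the whole interval between Ap4b1 and its neighbour Dclre1b, which runs the other way. Capitals mark matches on either strand to any of 6 motifs: the E-box CACGTG, the related letters CATGTG, the GC box GGGCGG, the CCAAT box, the TATA box TATAAA and the cyclic AMP response element TGACGTCA.
Snap23, chr2:120567421-120567654: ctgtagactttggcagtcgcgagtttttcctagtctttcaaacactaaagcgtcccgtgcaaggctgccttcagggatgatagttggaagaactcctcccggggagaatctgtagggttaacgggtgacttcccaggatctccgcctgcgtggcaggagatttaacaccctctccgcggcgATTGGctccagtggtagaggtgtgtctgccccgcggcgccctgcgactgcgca
Ap4b1, chr3:103809388-103809510: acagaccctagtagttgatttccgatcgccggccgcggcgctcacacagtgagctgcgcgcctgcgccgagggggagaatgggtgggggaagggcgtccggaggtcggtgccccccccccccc
Ap4e1, chr2:127008461-127008678: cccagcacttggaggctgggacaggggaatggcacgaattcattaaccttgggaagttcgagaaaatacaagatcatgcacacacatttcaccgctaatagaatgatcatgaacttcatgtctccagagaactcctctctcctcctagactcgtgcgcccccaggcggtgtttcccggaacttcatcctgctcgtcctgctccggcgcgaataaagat
Stx6, chr1:155158453-155158627: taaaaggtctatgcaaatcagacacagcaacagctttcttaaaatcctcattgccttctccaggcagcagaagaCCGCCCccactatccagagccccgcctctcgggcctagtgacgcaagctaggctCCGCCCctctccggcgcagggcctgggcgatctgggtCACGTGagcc

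Windows of 250 bases before the start were at hand for 8 of the 10 genes, those other than Snap25 and Vps39, and were compared with 32851 such windows. Vamp4 and Stx16 each had a further window, which gave 10 member windows. The windows also take in bases inside annotated genes. That of Vps16, which overlaps Pced1a, and the further windows of Vamp4 and Stx16 had 0 bases outside annotated genes. In the Stx6 window 175 of 250 bases lay outside, the stretch printed above. The CCAAT box counted for Stx6 was not within that stretch. The E-box, bound by basic helix-loop-helix factors, was in 3 of the 10 member windows, of Stx6, Vamp4 and Vps16, and in 6.02% of all windows. The GC box was in 4 of the 10, of Stx16, Stx6, Vamp4 and Vps16, and in 32.7% of all. The CCAAT box was in 2 of the 10, of Snap23 and Stx6, and in 33.8% of all. The related E-box letters, the TATA box and the cyclic AMP response element were in no member's window and in 12.3%, 12.4% and 1.55% of all. The windows of Ap4b1 and Ap4e1 held none of the 6 motifs, and neither did that of Vps18, which differed by 0.01. Snap23 held only the CCAAT box, read on the other strand as ATTGG. A link between motifs and the siRNA differences was not tested. The E-box and the cyclic AMP response element read the same on both strands, and no motif here contains another. The members' windows were 50.4% to 76% G and C, against a median of 52.4% over all windows.

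Genes that border the members were measured for 19 of 20 neighbours in the RefSeq gene order, a comparison chosen after the members' values were seen. Dclre1b, a DNA repair nuclease that shares the interval printed for Ap4b1, read 6.77, 6.79 and 6.91 in siDicer cells and 6.85, 7.00 and 7.03 in siScr cells. It was the lower in siDicer cells at each passage, with a difference of -0.14 ± 0.07 (SE, n = 3 each; limma, adjusted p = 0.591), beside 0.67 for Ap4b1. At Snap23, the neighbour Zfp106 had a difference of 0.27 ± 0.07 (limma, adjusted p = 0.241) and Lrrc57 one of -0.02, neither called.

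A neighbour of Vps16 was the one bordering gene of the 19 measured that passed the threshold, without and with the block. Of all probe sets 0.214% were called without the block and 0.995% with it. Ptpra, a receptor-type tyrosine phosphatase, read 9.68, 9.67 and 9.77 in siDicer cells against 9.17, 9.22 and 9.24 in siScr cells. It rose by 0.50 ± 0.06 on the log2 scale (SE, n = 3 each; limma, adjusted p = 0.0265 without and 0.0296 with the block), higher in 3 of 3 pairs, while Vps16 differed by -0.01. Without any 1 of the 6 arrays, siDicer replicate 1, 2 or 3 or siScr replicate 1, 2 or 3, Ptpra no longer passed, with changes of 0.46 to 0.51 and adjusted p from 0.0736 to 0.158 in limma. Differences of the 19 neighbours ran from -0.14 to 0.50.

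**Figure D5:**
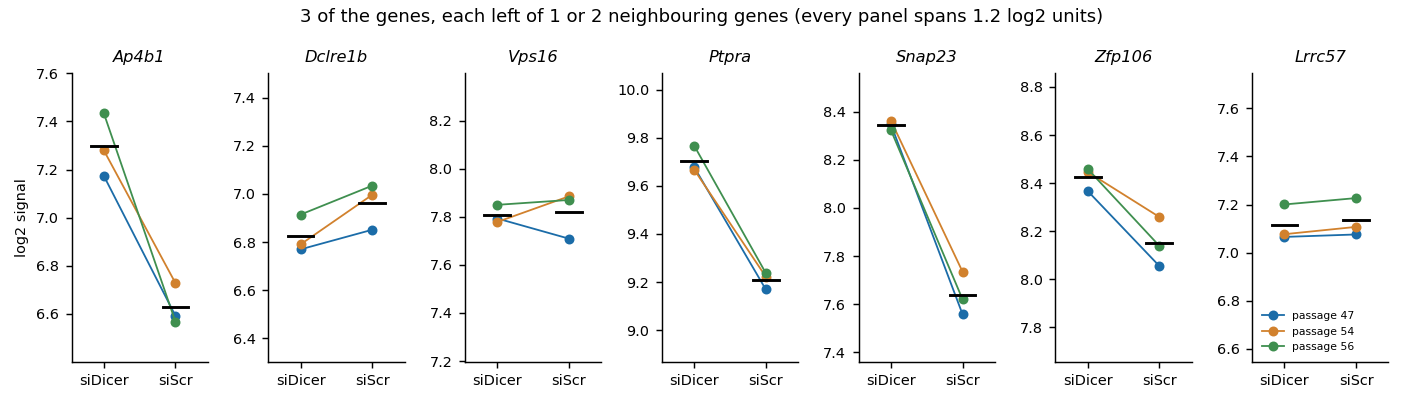
Log2 signal on the vertical axis of Ap4b1, Vps16 and Snap23 with neighbouring genes to the right of each, in siDicer and siScr cells; points are arrays coloured by passage, lines join the same passage and black bars are group means. Ap4b1 differs by 0.67 beside -0.14 for Dclre1b, and Vps16 by -0.01 beside 0.50 for Ptpra.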

How the data were processed

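The authors' deposited table holds log2 signals per transcript cluster, for which the submitters' processing notes name Affymetrix Expression Console. Not given in the sources used here are its version, the background correction, the normalization and the genome build. Log2 differences of dim probe sets are compressed by background, and scaling between arrays would hide a shift shared by most transcripts. Symbols came from the platform annotation, updated through Entrez numbers for 230 probe sets; 7439 of 7530 named probe sets lay on chromosomes 1 to 4, so gene counts are almost only of these. The probe set of highest mean stood for each gene. The siRNA groups were tested in limma 3.58.1 (R 4.3.3) over all 16383 probe sets (lmFit, eBayes), siDicer minus siScr, with Benjamini-Hochberg adjustment and a threshold of 0.05. The number of arrays limits the precision. The procedure was tested on data simulated without differences between replicate numbers, with the residual spread of the fit with the block. The shares without the block therefore leave out spread between replicate numbers, and cannot be carried over to these arrays. Of changes of 0.5 log2 units 77.3% were called in the right direction without the block and 45.5% with it. For changes of 1 log2 unit these shares were 98.1% and 87%. Smaller changes, such as those in the trafficking lists, were not simulated.

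The members and lists were chosen with earlier results of these data known. Genes named outside the set were every one called in a list, up to 4 per list with the smallest p, partners of the members' complexes, the 3 nearest profiles of Snap23 and of Ap4b1, and marker genes. The neighbours of the members, and Hook1, were added after values were seen. Same-numbered arrays share a passage, and their deviations from the group means correlated with r of 0.436, 0.406 and 0.24, against -0.337 to -0.038 for other pairs. Deviations sum to 0 within a group, so positive values for same-numbered arrays bring negative ones for other pairs. The negative values are therefore no separate support. The numbers were taken as pairing the arrays. Alternatives were this replicate block, quantile normalization, median centring, a level filter, probe sets with 1 symbol, array weights, a threshold of 0.1 and leaving out each array.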

Additional observations from a re-analysis of the deposited data

How the results depend on the processing

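Over all probe sets 35 were called without the replicate block. With the block 163 were, with probe sets of a mean level above the median 59, with those of 1 symbol 69, with array weights 66 and at a threshold of 0.1 99; leaving out 1 array gave 0 to 20. A looser threshold can only raise the count, by construction. For the block, the weights and the filters on probe sets the cause of the change was not tested. Of the members, 2 were called in each of the 6 alternatives that kept all arrays, and 0 to 2 when 1 array was left out. Over the 12 alternatives the differences ran from 0.67 to 0.76 for Snap23, from 0.60 to 0.73 for Ap4b1 and from 0.31 to 0.45 for Ap4e1. The members were selected on this contrast, so neither their direction nor their calls here bear on stability. The small differences of Stx6, Vps16, Vps18 and Vamp4 changed sign in 4, 3, 3 and 1 of 12 alternatives, by less than the spread between replicates. The block changed no call among the members or the trafficking lists, where 0 genes were called in every alternative. Each gene had 1 probe set, so no other could be tried.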

Other observations

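Some genes that border the members had separate groups or pairs of one direction, upward or downward, without passing the threshold. Over all probe sets groups did not overlap for 7.57% with siDicer higher and 8.29% with siDicer lower. All pairs were higher in siDicer cells for 17.9% and lower for 22.6%. Sppl2a, an intramembrane protease of lysosomes and late endosomes next to Ap4e1, was at 8.60 ± 0.05 in siDicer cells and 8.35 ± 0.05 in siScr cells (SD, n = 3 each; limma, adjusted p = 0.219 without and 0.118 with the block). Mr1, an antigen-presenting molecule gene next to Stx6, was at 9.57 ± 0.33 in siDicer cells and 9.28 ± 0.34 in siScr cells (SD, n = 3 each), higher in all 3 pairs, limma giving adjusted p = 0.666 without the block and 0.0812 with it. Blvra, the biliverdin reductase gene on the other side of Ap4e1, differed by 0.11 (limma, adjusted p = 0.665) and was higher in all 3 pairs. Zfp106, next to Snap23, Mkks, next to Snap25, and Tmem87a, next to Vps39, had separate groups with siDicer above. Pla2g4f, also next to Vps39, had separate groups with siDicer below and a difference of -0.11 (limma, adjusted p = 0.622). Lrrc57, Ankef1, BC034090, Vapb and Dclre1b were lower in siDicer cells in all 3 pairs, with overlapping groups.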
